A study of Mus musculus with 13 samples.

Results

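The genes described are 10 early-response genes, taken by symbol from the 13 count files: *Egr1*, *Egr2*, *Egr3*, *Klf2*, *Klf4*, *Klf6*, *Klf10*, *Ier2*, *Ier3* and *Btg2*. All 10 were among the 53278 symbols counted, and all 10 are among the 15690 that passed the filter on low counts. RNA came from whole hearts of 13 male wild-type C57Bl6 mice aged 17 weeks, operated on at 12 weeks. Sham hearts (n = 3) had sham surgery and no injection. IR hearts (n = 3) had ischaemia and reperfusion, a temporary stop of blood flow to heart muscle, and no injection. IR virus hearts (n = 3) received a control virus besides IR. IR edit hearts (n = 4) received, besides IR, a functional system that edits the gene of CaMKIIδ, a calcium-dependent kinase of heart muscle. None of the 4 groups combines the editing system with sham surgery, and the labels give neither the dose or kind of virus nor the time of day of harvest. Each library was taken as 1 heart, and p-values measure the spread between these libraries.

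Early-response genes are transcribed within minutes of a stimulus, from factors already present in the cell, and their RNAs are short-lived. The EGR proteins are zinc-finger transcription factors of the early growth response family, induced by serum, stretch and hormones through the serum response factor and its partners. The KLF proteins are zinc-finger factors that bind GC-rich and CACCC-type sites. Among them *Klf2* and *Klf4* are known for their induction in endothelium by flowing blood through the kinase ERK5 and MEF2 factors. *Ier2* and *Ier3* encode small immediate early proteins, and *Btg2* encodes an antiproliferative protein that helps to shorten mRNA tails.

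Total counts ran from 20634820 to 27265276 per library. Transcripts of the mitochondrial genome took 29.7% to 38.5% of them. On the first principal component of all genes (27.5% of the variance), the scores were 34.0 and 45.1 in IR edit replicates 2 and 4 and -26.5 to 10.2 in the rest. The cardiomyocyte markers, 10 genes, summed to between 52491 and 63239 CPM (counts scaled to library size with TMM) across the hearts, and none of them was at 0. Sham replicate 1 stood apart in clock genes: *Arntl*, the activator of the daily clock, was at 0.755 CPM there and at 6.24 and 8.33 in Sham replicates 2 and 3. *Arntl* and *Per1* were picked for mention after their values were seen.

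Promoter sequences of members that rose in IR edit against Sham, and of *Ier3*, which passed no test, are shown so that the letters can be read beside the levels. RefSeq's table for GRCm38.p6 (the assembly also called mm10) held an entry for 6 of the 10 members, and *Egr1*, *Egr3*, *Klf10* and *Ier2* are named only. Bases run 5′ to 3′ on the gene's strand and, except for *Egr2*, end before the first annotated start site. Capitals mark the motifs searched on both strands: the cyclic AMP response element TGACGTCA and its short form TGACG, which the full element contains, the EGR site GCGNGGGCG, the E-box CACGTG, the AP-1 site TGANTCA, the CArG box that binds serum response factor, and the MEF2 site. For *Egr2*, with 5 start sites, 30 bases around each of its 2 CArG boxes are given. Both stretches lie inside the gene, after its first annotated start at 67535475. The 226 bases before that start, not printed, held no whole motif of the set.
Klf2 (chr8:72318812-72319032, plus strand): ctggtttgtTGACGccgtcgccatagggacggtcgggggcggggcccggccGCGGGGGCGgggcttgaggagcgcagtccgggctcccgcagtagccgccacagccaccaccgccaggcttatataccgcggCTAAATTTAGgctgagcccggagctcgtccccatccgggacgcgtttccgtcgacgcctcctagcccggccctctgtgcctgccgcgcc
Klf4 (chr4:55532476-55532725, minus strand): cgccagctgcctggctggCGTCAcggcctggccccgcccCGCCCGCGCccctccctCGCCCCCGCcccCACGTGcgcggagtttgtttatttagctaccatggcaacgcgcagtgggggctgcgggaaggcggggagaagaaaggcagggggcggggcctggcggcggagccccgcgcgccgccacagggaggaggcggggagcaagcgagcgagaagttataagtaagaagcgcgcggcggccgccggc
Klf6 (chr13:5861239-5861481, plus strand): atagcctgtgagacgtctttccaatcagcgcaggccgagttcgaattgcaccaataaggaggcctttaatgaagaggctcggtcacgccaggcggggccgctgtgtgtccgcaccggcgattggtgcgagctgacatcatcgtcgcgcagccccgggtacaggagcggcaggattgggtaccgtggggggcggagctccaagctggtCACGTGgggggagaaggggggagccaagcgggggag
Btg2 (chr1:134079156-134079405, minus strand): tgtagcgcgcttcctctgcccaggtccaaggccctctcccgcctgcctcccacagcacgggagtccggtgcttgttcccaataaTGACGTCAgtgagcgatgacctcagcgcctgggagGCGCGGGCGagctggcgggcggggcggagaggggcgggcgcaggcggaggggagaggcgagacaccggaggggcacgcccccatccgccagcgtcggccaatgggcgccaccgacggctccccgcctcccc
Ier3 (chr17:35821463-35821683, plus strand): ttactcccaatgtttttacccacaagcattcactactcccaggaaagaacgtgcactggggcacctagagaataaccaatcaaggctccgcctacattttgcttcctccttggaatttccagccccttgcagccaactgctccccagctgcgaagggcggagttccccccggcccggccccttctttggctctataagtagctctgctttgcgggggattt
Egr2 (chr10:67537484-67537513, plus strand): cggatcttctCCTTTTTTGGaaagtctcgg
Egr2 (chr10:67537787-67537816, plus strand): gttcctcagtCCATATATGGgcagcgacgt

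The *Klf2* stretch held a short element, an EGR site and a MEF2 site, which begin 241, 199 and 118 bases before the RefSeq start. The *Klf4* stretch held a short element, an E-box and 2 EGR sites, and the *Klf6* stretch an E-box 43 bases before the start. The *Btg2* stretch held the full element 166 bases before the start and an EGR site at 131. No motif of the set lay in the *Ier3* window. An EGR site was found for 3 of the 6 members with an entry and in 5.55% of 32851 RefSeq windows of 300 bases. The shares over those windows were 1.79% for the full element, 20.8% for its short form, 7.15% for the E-box, 7.81% for the AP-1 site, 1.63% for the CArG box and 3.19% for the MEF2 site. The short form was found for 4 of the 6 (*Egr2*, *Klf2*, *Klf4* and *Btg2*), the E-box for 3 (*Egr2*, *Klf4* and *Klf6*), the full element, the CArG box and the MEF2 site for 1 each, and an AP-1 site for 0. The E-box and short forms of *Egr2* lie outside the letters printed. A member counted if any of its windows held the motif, and *Egr2* had 5 windows. The shares are per single window, so the 2 measures are not alike for *Egr2*. The RefSeq windows were not matched to the members in base content. *Ier3* is the only member with an entry that passed no test, so the matches do not set rising members apart from others. A match describes letters and does not show binding.

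Of the 10 members, 7 were higher in IR edit than in Sham: *Egr1*, *Egr2*, *Egr3*, *Klf2*, *Klf4*, *Klf6* and *Btg2*. Over all genes tested, edgeR's quasi-likelihood test called 4.61% higher and 8.01% in either direction. Between IR edit and IR virus 3 members rose, *Klf2*, *Klf4* and *Klf6*, where 0.962% of all genes were called higher and 2.02% in either direction. The same 3 rose between IR edit and IR, where 0.784% of all genes were higher and 1.42% in either direction. No member passed in IR against Sham (0.0127% of all genes), in IR virus against Sham (0.0127%) or in IR virus against IR (0%). At an unadjusted p under 0.05 in edgeR the members counted 1, 0 and 0 in those 3 comparisons, against 8.33%, 15.4% and 3.84% of all genes. DESeq2 called 0 members in each, and 0.363%, 1.29% and 0% of all genes. Against Sham the members called numbered 2, *Klf4* and *Btg2*, without IR edit replicates 2 and 4, where 0.994% of all genes were called. They numbered 1, *Klf4*, in a fit of the 2 groups alone, where 1.62% of all genes were called. Against IR virus they numbered 2 without those replicates, again *Klf4* and *Btg2* (0.566% of all genes), and 5 in DESeq2, with *Egr2* and *Btg2* added (3.30%). The median log2 fold change of the 10 was 0.75 in IR edit against Sham, 0.70 against IR virus and 0.70 against IR. It was -0.01 in IR against Sham and 0.04 in IR virus against Sham, and the median of all genes lay between -0.01 and 0.01 in these 5 comparisons. The 3 comparisons of IR edit share the IR edit hearts, and those with Sham share the Sham hearts. The members were chosen with earlier results of these data known, so the shares of all genes describe and do not test their counts.

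Every IR edit heart was above every Sham heart for 4 members (*Egr2*, *Klf4*, *Klf6* and *Btg2*), where 8.22% of all genes were so placed. Above every IR virus heart were 5 members, those 4 and *Klf2*, against 6.83% of all genes. Above every IR heart were 5 members, *Klf2*, *Klf4*, *Klf6*, *Ier2* and *Btg2*, against 5.97%. *Egr2* was the 1 member with every IR heart above Sham (7.94% of all genes) and *Egr3* the 1 with every IR virus heart above Sham (11.0%). IR virus and IR overlapped for all 10 members, and 12.0% of all genes did not overlap between them.

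**Figure D1:**
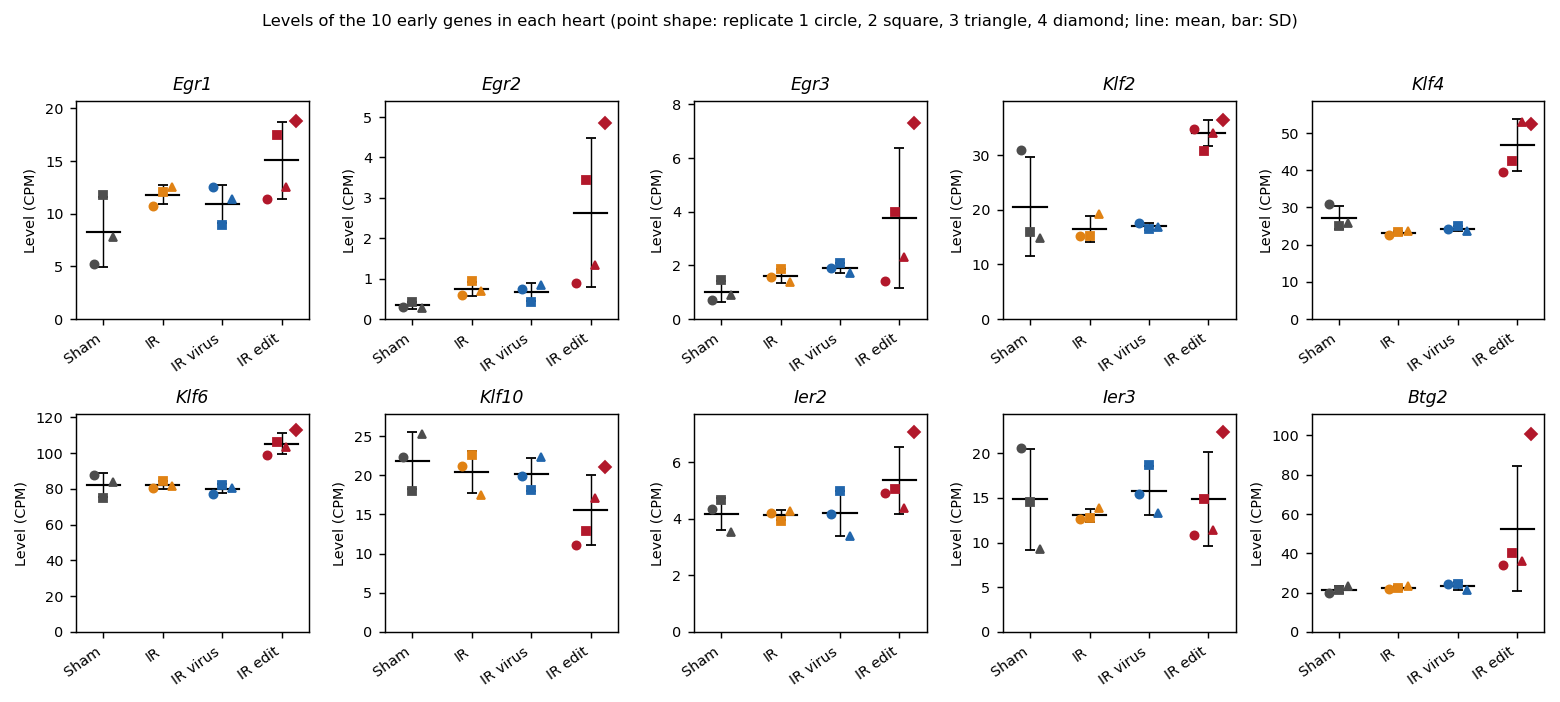
Level of each early gene in each heart (CPM on the vertical axis, from 0, with a scale of its own per gene), with the mean as a line and the SD as a bar for Sham, IR, IR virus (n = 3 each) and IR edit (n = 4). *Klf4*, *Klf6* and *Btg2* had all 4 IR edit hearts above the other 9, while *Egr2* and *Egr3* were highest in IR edit replicates 2 and 4.

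*Klf4*, a factor that restrains inflammation in endothelium and takes part in the phenotypic switching of smooth muscle, occupies chr4:55527143-55532466 (mm10, minus strand). Its level was 30.9, 25.1 and 25.7 CPM in Sham replicates 1 to 3, 22.6, 23.3 and 23.7 in IR, 24.3, 24.9 and 23.7 in IR virus, and 39.5, 42.4, 53.0 and 52.3 in IR edit. All 4 IR edit hearts were above each of the other 9. The same was true of 3 of the 10 members and of 1.77% of all genes tested. The log2 fold change was 0.95 ± 0.11 (SE) against IR virus (edgeR adjusted p = 0.000231), 1.01 ± 0.11 against IR (adjusted p = 0.000134) and 0.78 ± 0.11 against Sham (adjusted p = 0.00111). *Klf4* passed in these 3 comparisons whichever of the 13 libraries was left out and under each other setting tried. In IR and IR virus all hearts lay below the lowest Sham heart, without passing the test (log2 fold change -0.24 ± 0.11 and -0.17 ± 0.11, adjusted p = 0.611 and 0.486). It was the 1 member of 10 below Sham in every heart of IR and of IR virus, against 6.45% and 10.3% of all genes.

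*Klf6*, a broadly expressed factor induced by injury, occupies chr13:5861482-5870394 (plus strand). It was at 87.6, 74.6 and 84.1 CPM in Sham, 80.4, 84.5 and 81.6 in IR, and 77.1, 82.2 and 80.5 in IR virus. The IR edit hearts were at 98.8, 106, 103 and 113 CPM, all above the rest. The rise was 0.40 ± 0.071 (SE) on the log2 scale against IR virus (adjusted p = 0.00979), 0.36 ± 0.071 against IR (0.0199) and 0.36 ± 0.071 against Sham (0.00882). Against IR virus the call was lost without IR virus replicate 1 (adjusted p = 0.0707). Against IR it was lost without IR replicate 1, 2 or 3 or IR edit replicate 2 or 4 (largest adjusted p 0.124), and against Sham it passed whichever library was left out. In IR against Sham the log2 fold change was 0.001 ± 0.075 (adjusted p = 0.998, 95% interval -0.16 to 0.16).

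*Klf2*, the flow-induced factor that keeps endothelium and lymphocytes quiescent, occupies chr8:72319033-72321656 (plus strand). Its level was 30.9, 15.9 and 14.8 CPM in Sham, 15.1, 15.2 and 19.3 in IR, 17.6, 16.4 and 16.8 in IR virus, and 34.8, 30.7, 34.0 and 36.3 in IR edit. The IR edit hearts were above all IR and IR virus hearts, and Sham replicate 1 lay just above the lowest of them. Its log2 fold change was 1.003 ± 0.19 (SE) against IR virus (adjusted p = 0.0155), 1.04 ± 0.20 against IR (adjusted p = 0.0136) and 0.72 ± 0.19 against Sham (adjusted p = 0.0322). Without Sham replicate 1 the difference from Sham was 1.14, a call. Without Sham replicate 2 or 3 or IR edit replicate 2 or 4 it was no call, with adjusted p up to 0.125. The call against IR virus was lost without any 1 of the 3 IR virus hearts (adjusted p = 0.0756, 0.0741 and 0.0704), and that against IR without IR replicate 1 or 2 (0.102 and 0.103). The sign of IR against Sham turned from -0.32 to 0.10, and that of IR virus against Sham from -0.28 to 0.14, without Sham replicate 1.

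Of 10 markers of endothelium, the cells in which *Klf2* and *Klf4* are best known, 0 passed in IR edit against Sham or against IR virus, with 1 at an unadjusted p under 0.05 in each. Against IR 1 was lower, *Emcn*, named after its value was seen (-0.36 ± 0.073, adjusted p = 0.0225). They summed to 992 to 1086 CPM in Sham, 1017 to 1175 in IR, 1016 to 1076 in IR virus and 982 to 1101 in IR edit. Markers of mural cells, which also use *Klf4*, summed to 1608 to 1808 CPM in Sham, 1596 to 1743 in IR, 1525 to 1623 in IR virus and 1129 to 1454 in IR edit. Of these 8 genes 2 were lower in IR edit than in Sham and 0 passed against IR virus, with 4 at an unadjusted p under 0.05, and none was at 0. Their part in the results was not tested. In whole hearts fewer cells of a type and less RNA per cell cannot be told apart. Of 6 genes listed as known targets of *Klf2* and *Klf4* in endothelium, 1 was higher and 1 lower in IR edit than in IR virus, and 1 was higher and 2 lower than in Sham. *S1pr1*, a receptor for sphingosine phosphate that *Klf2* activates in lymphocytes, was at 54.8 ± 3.56 CPM in IR virus (SD, n = 3) and 84.4 ± 6.29 in IR edit (n = 4), and rose by 0.62 ± 0.12 on the log2 scale (SE, adjusted p = 0.015). *Vcam1*, an adhesion molecule that both factors restrain, fell from 32.0 ± 1.34 to 24.1 ± 2.06 CPM (-0.41 ± 0.098, adjusted p = 0.0435). *Thbd*, thrombomodulin, which both factors activate, fell against Sham (-0.34 ± 0.088, adjusted p = 0.0304). Against IR virus it had -0.17 ± 0.088 (adjusted p = 0.373). Of the 5 genes of the ERK5 and MEF2 route 0 passed in either comparison, with 1 at an unadjusted p under 0.05 in each. *Mapk7*, which encodes ERK5, had their smallest p against Sham (0.43 ± 0.17, adjusted p = 0.139). These are RNA levels, and the activity of the route was not measured.

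*Klf10*, a factor induced by TGF-beta and driven by the daily clock, occupies chr15:38291463-38300706 (minus strand). Its level was 22.3, 18.0 and 25.3 CPM in Sham, 21.2, 22.6 and 17.4 in IR, 19.9, 18.1 and 22.3 in IR virus, and 11.1, 12.9, 17.1 and 21.1 in IR edit. IR edit replicates 1 to 3 were below every other heart and replicate 4 lay among them. Its log2 fold change against Sham was negative, -0.49 ± 0.18 (SE), and did not pass (adjusted p = 0.108, 95% interval -0.88 to -0.11). Without IR edit replicate 4 it was -0.68 and passed (adjusted p = 0.0312). Against IR virus it was -0.37 ± 0.18 (adjusted p = 0.344) and against IR -0.40 ± 0.18 (adjusted p = 0.333).

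Of the 13 other KLF genes, 10 passed the filter on low counts. None of the 10 passed in IR edit against IR virus, where 1 had an unadjusted p under 0.05 (edgeR; 15.2% of all genes). In IR edit against Sham 1 fell, *Klf15*, a metabolic factor of heart muscle that follows the clock and glucocorticoids. It was at 33.7 ± 5.28 CPM in Sham (SD, n = 3) and 22.9 ± 4.98 in IR edit (n = 4), and fell by 0.56 ± 0.14 on the log2 scale (SE, adjusted p = 0.0288). In IR it was at 25.5 ± 2.30 CPM and in IR virus at 25.1 ± 1.38, and IR edit differed from IR virus by -0.13 ± 0.14 (adjusted p = 0.715). *Klf3* and *Klf9* had log2 fold changes of -0.24 ± 0.073 (adjusted p = 0.0518) and -0.36 ± 0.11 (adjusted p = 0.0622) against Sham. The 10 had a median log2 fold change of -0.06 against Sham and -0.02 against IR virus.

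**Figure D2:**
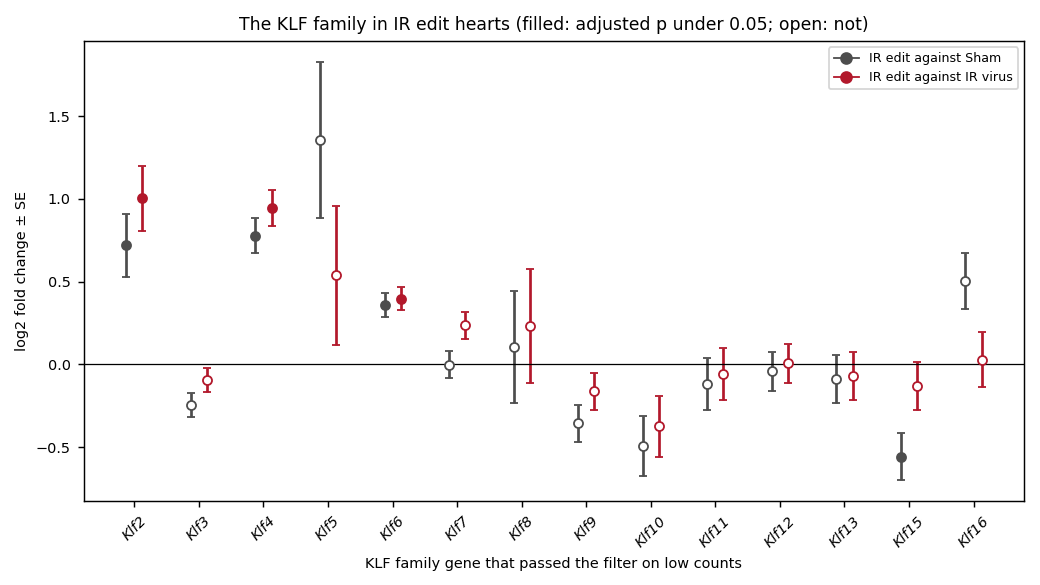
Log2 fold change with its SE (vertical axis) of the 14 KLF genes that passed the filter on low counts, in IR edit against Sham (grey) and against IR virus (red), filled where the adjusted p was under 0.05. *Klf2*, *Klf4* and *Klf6* are filled and positive in both, and *Klf15* is filled and negative against Sham.

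The 3 EGR genes rose against Sham and were uneven among the IR edit hearts. *Egr2*, known for its part in myelin-forming cells and in T cells, occupies chr10:67535475-67542188 (plus strand). It was rare, with 6 to 120 reads per heart. Its level was 0.302, 0.431 and 0.284 CPM in Sham, 0.606, 0.938 and 0.693 in IR, 0.756, 0.420 and 0.842 in IR virus, and 0.890, 3.45, 1.35 and 4.85 in IR edit. Every IR edit heart was above every Sham and IR virus heart. Replicates 2 and 4 were above replicates 1 and 3, as on the first principal component. *Nppa*, the atrial natriuretic peptide of strained muscle, was at 304 and 422 CPM in those 2 hearts and 98.9 and 55.9 in replicates 1 and 3. *Acta1*, skeletal actin, was at 1036 and 1056 CPM against 352 and 159. Both were named after their values were seen, and their part in the result was not tested. The rise against Sham was 2.94 ± 0.56 on the log2 scale (SE, adjusted p = 0.00723), the highest value of the 10 members, and it passed whichever single library was left out. Against IR virus it was 1.96 ± 0.49 (adjusted p = 0.0563) and against IR 1.82 ± 0.49 (adjusted p = 0.084). Without IR edit replicates 2 and 4 together it was 1.68 against Sham (adjusted p = 0.0557) and 0.70 against IR virus.

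*Egr3*, a close relative induced by the same stimuli, occupies chr14:70077203-70082614 (plus strand). It was at 0.717, 1.46 and 0.899 CPM in Sham, 1.56, 1.88 and 1.39 in IR, 1.91, 2.1 and 1.73 in IR virus, and 1.41, 3.99, 2.33 and 7.32 in IR edit. Replicates 2 and 4 were again the highest, and replicate 1 lay within the Sham range. The rise against Sham was 1.88 ± 0.45 (SE, adjusted p = 0.0219). The call was lost without Sham replicate 1 or 3 or IR edit replicate 2 (adjusted p = 0.0839, 0.0702 and 0.0576). Against IR virus the log2 fold change was 0.98 ± 0.41 (adjusted p = 0.273), and without IR edit replicates 2 and 4 it was -0.06.

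*Egr1*, the founding member and a regulator of growth factor and clotting genes in injured vessels, occupies chr18:34859823-34864984 (plus strand). Its level was 5.21, 11.8 and 7.81 CPM in Sham, 10.8, 12.1 and 12.6 in IR, 12.5, 8.95 and 11.4 in IR virus, and 11.4, 17.5, 12.5 and 18.8 in IR edit. The IR edit hearts overlapped Sham through Sham replicate 2, and IR edit replicates 1 and 3 lay within the range of IR and IR virus. The rise against Sham was 0.87 ± 0.23 (SE, adjusted p = 0.0313). It was lost without Sham replicate 1 or 3 or IR edit replicate 2 or 4 (adjusted p = 0.108, 0.0892, 0.0934 and 0.0944). Against IR virus the log2 fold change was 0.46 ± 0.22 (adjusted p = 0.344). The 6 atrial markers, *Nppa* among them, summed to 24.9 to 96.2 CPM in Sham, 167 to 262 in IR, 240 to 254 in IR virus and 81.0 to 454 in IR edit, and *Bmp10* was at 0 in IR edit replicate 3. In IR edit 1 of the 6 rose against Sham (*Nppa*) and 1 fell against IR virus (*Dkk3*), with 5 of 6 values negative there, and their part in the result was not tested. In the hearts without the editing system the 3 EGR genes all had positive log2 fold changes against Sham, of 0.52 to 1.13 in IR and 0.41 to 0.98 in IR virus, and 0 of 3 passed.

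**Figure D3:**
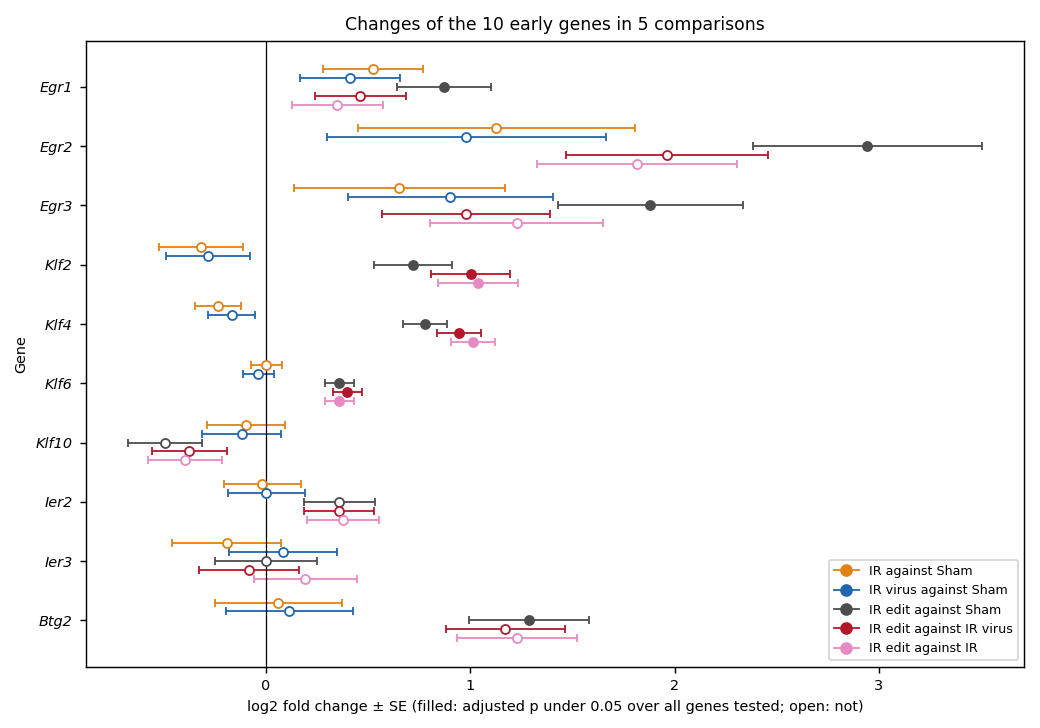
Log2 fold change (horizontal axis) with its SE for each early gene in 5 comparisons (colours), filled where the adjusted p over all genes was under 0.05. The filled points are the 7 members in IR edit against Sham and *Klf2*, *Klf4* and *Klf6* against IR virus and against IR, and *Klf10* lies on the negative side.

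*Egr4*, the remaining EGR gene, had 0 reads in every heart. *Nab1* and *Nab2*, corepressors that bind EGR proteins, did not pass in IR edit against Sham (0.09 ± 0.075 and 0.27 ± 0.17, adjusted p = 0.493 and 0.362). Among 7 genes listed as known targets of EGR1, 1 was higher and 1 lower in IR edit than in Sham and 0 passed against IR virus, where 0 had an unadjusted p under 0.05. *Mmp14*, a membrane-bound matrix protease, rose by 0.74 ± 0.21 (SE, adjusted p = 0.0441), and *F3*, tissue factor, fell by 0.37 ± 0.11 (adjusted p = 0.0441). *Mmp14* was at 15.5 ± 3.81 CPM in IR and 15.99 ± 1.92 in IR edit. Markers of fibroblasts, which also express *Mmp14*, summed to 1411 to 1518 CPM in Sham, 1671 to 2106 in IR, 1884 to 2228 in IR virus and 1595 to 2236 in IR edit. Of these 8 genes 4 rose in IR edit against Sham and 0 passed against IR virus, none was at 0, and their part in the results was not tested. Among 7 genes of the serum response factor route 2 rose against Sham, *Srf* itself by 0.41 ± 0.11 (adjusted p = 0.0389) and its muscle coactivator *Myocd* by 0.35 ± 0.082 (adjusted p = 0.0205). Against IR virus 0 of 7 passed, with 2 at an unadjusted p under 0.05. Of 6 CREB genes, which act through cyclic AMP elements, 1 rose against Sham: *Crem*, a modulator of that response, by 0.61 ± 0.16 (adjusted p = 0.0313). It had 0.57 ± 0.16 against IR virus (adjusted p = 0.0898). For the serum response factor and CREB genes too, these are RNA levels, and activity was not measured.

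*Btg2*, the antiproliferative gene, occupies chr1:134075170-134079120 (minus strand). It was at 20.01, 21.4 and 23.4 CPM in Sham, 21.7, 22.2 and 23.6 in IR, and 24.5, 24.5 and 21.2 in IR virus. The IR edit hearts were at 34.1, 40.0, 35.9 and 100 CPM. All 4 lay above the other 9, and replicate 4 was far above the other 3. The log2 fold change was 1.29 ± 0.29 (SE) against Sham (adjusted p = 0.0171), 1.17 ± 0.29 against IR virus (0.0528) and 1.23 ± 0.29 against IR (0.0514). Without IR edit replicate 4 it was smaller and passed in all 3: 0.76 against Sham, 0.66 against IR virus (adjusted p = 0.00223) and 0.71 against IR (adjusted p = 0.00106). The call against Sham was lost without Sham replicate 1 or 2 (adjusted p = 0.06 and 0.0515). Scaling with DESeq2's size factors put the comparisons with IR virus and IR past the threshold (adjusted p = 0.0495 and 0.0493).

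*Ier2*, an immediate early nuclear protein, occupies chr8:84661331-84662852 (minus strand). It was at 4.34, 4.65 and 3.55 CPM in Sham, 4.20, 3.92 and 4.29 in IR, 4.18, 5.0 and 3.41 in IR virus, and 4.90, 5.06, 4.4 and 7.08 in IR edit. The IR edit hearts lay above every IR heart and overlapped Sham and IR virus. The log2 fold change against Sham was 0.36 ± 0.17 (SE, adjusted p = 0.227, 95% interval -0.01 to 0.73), an interval that holds the value of *Klf6*. *Ier3*, a stress-induced protein that modulates cell survival, occupies chr17:35821684-35822923 (plus strand). It was at 20.6, 14.6 and 9.32 CPM in Sham, 12.6, 12.7 and 13.9 in IR, 15.4, 18.7 and 13.3 in IR virus, and 10.9, 14.9, 11.4 and 22.3 in IR edit. Sham and IR edit covered nearly the same range. The log2 fold change against Sham was 0.00 ± 0.25 (adjusted p = 1, 95% interval -0.53 to 0.53).

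Of the 7 relatives of the IER and BTG genes, 6 were tested, and 1 rose in IR edit against IR virus: *Tob1*, an antiproliferative protein of the BTG family, at 62.8 ± 4.39 CPM (SD, n = 3) and 82.4 ± 5.38 (n = 4), by 0.39 ± 0.081 (SE, adjusted p = 0.0221). *Tob2*, its paralogue, had 0.80 ± 0.20 (adjusted p = 0.0571), with 76.9, 39.1 and 42.2 CPM in Sham and 74.9, 54.2, 81.5 and 69.7 in IR edit. As for *Klf2*, Sham replicate 1 was as high as the IR edit hearts. Against Sham 0 of 6 passed, with 1 at an unadjusted p under 0.05 (23.6% of all genes).

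Per kilobase of exon (GENCODE M21), the order of the members' mean levels in Sham was *Klf6* at 18.7 CPM per kb, *Ier3* at 13.1, *Klf2* at 11.1, *Klf4* at 8.94, *Btg2* at 7.88, *Klf10* at 5.23, *Ier2* at 2.75, *Egr1* at 1.84, *Egr3* at 0.233 and *Egr2* at 0.0997. Each neighbouring pair from *Klf6* to *Btg2*, and *Ier2* with *Egr1*, had hearts whose levels overlap. The order of the means in IR edit was *Klf6* at 24.0 CPM per kb, *Btg2* at 19.2, *Klf2* at 18.4, *Klf4* at 15.3 and *Ier3* at 13.2, again with overlap between neighbours, and the other 5 were at 3.72 or less. The place of *Btg2* depends on IR edit replicate 4, at 100 CPM before division by length, against 34.1, 40.0 and 35.9 in replicates 1 to 3.

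Of 23 other early genes listed (AP-1 subunits, NR4A receptors and others), 21 were tested. In IR edit 12 were higher and 1 lower than in Sham, where 4.61% of all genes were higher and 8.01% called in either direction. Against IR virus 8 were higher and 1 lower (0.962% and 2.02% of all genes). The lower one was *Fosl1*, an AP-1 subunit, in both (named after its values were seen). Against IR 8 were higher and 0 lower (0.784% and 1.42%). *Nr4a1*, a nuclear receptor, rose by 3.44 ± 0.26 (SE, adjusted p = 1.04e-05) against IR virus, *Fosl2*, an AP-1 subunit, by 1.51 ± 0.15 (0.000101) and *Sik1*, a kinase induced by cyclic AMP, by 1.91 ± 0.19 (0.000101). Their IR edit hearts, replicates 1 to 4, were at 31.2, 24.3, 38.4 and 53.0 CPM for *Nr4a1*, 53.2, 52.2, 63.7 and 89.0 for *Fosl2*, and 59.6, 38.5, 70.8 and 66.8 for *Sik1*.

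Of 19 clock genes 3 were higher and 9 lower in IR edit than in Sham, where 8.01% of all genes were called in either direction. The counts were the same against IR virus (2.02% of all genes). Against IR 3 were higher and 6 lower (1.42%). *Dbp*, a clock output factor, was at 28.7, 35.1 and 25.3 CPM in Sham and at 7.09, 5.02, 7.66 and 4.01 in IR edit. *Arntl* was at 27.3, 27.7, 22.6 and 26.8 CPM in IR edit. *Per1*, a clock gene that is also an early gene, was at 43.5, 19.4 and 14.6 CPM in Sham, with replicate 1 highest as for *Klf2*. In IR virus *Per1* was at 21.9, 31.5 and 15.7 CPM. There replicate 2 was the highest and had *Arntl* at 1.43 CPM, against 6.01 and 6.27 in the other 2. *Klf2* was not raised in that heart, at 16.4 CPM against 17.6 and 16.8. *Tob2*, picked after its values were seen, was highest of the IR virus hearts there, at 47.9 CPM. In Sham it was likewise highest in replicate 1. In IR edit *Klf2* and *Arntl* were both high, unlike in Sham replicate 1. Single hearts are described here, and the part of the clock state in the levels of the members was not tested. Clock genes differ together with the group in IR edit, and the time of day of harvest is not given. Clock state and group therefore cannot be separated in these hearts.

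**Figure D4:**
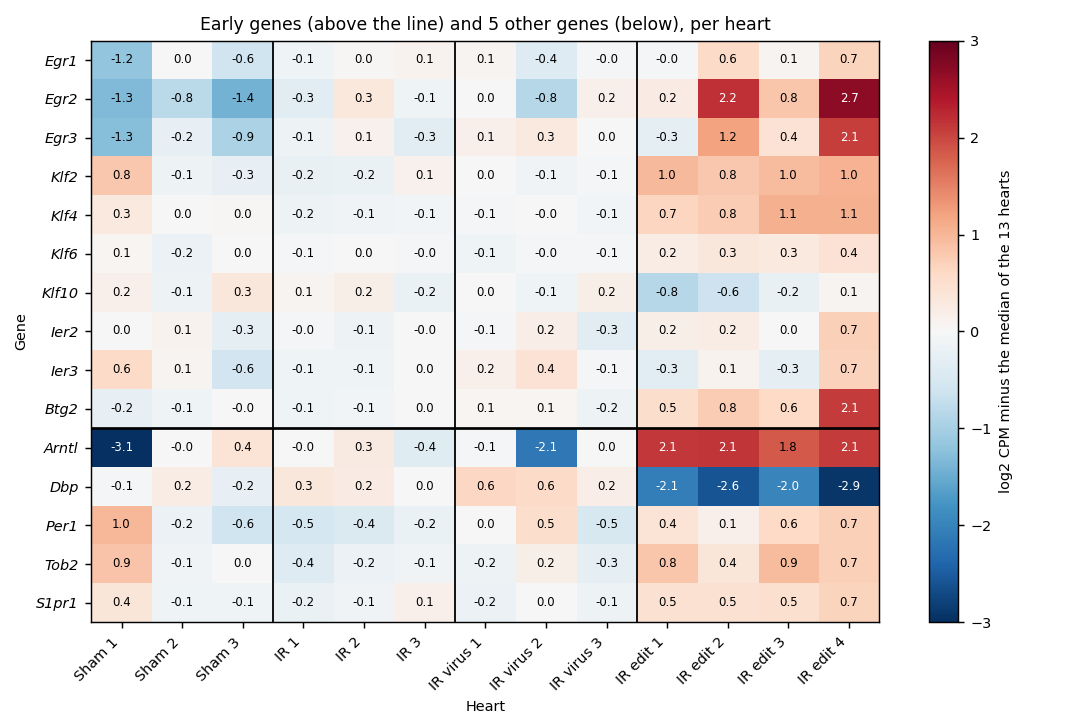
Log2 CPM of each gene minus its median over the 13 hearts (colour and printed value), with hearts as columns and genes as rows: the 10 early genes above the line, and *Arntl*, *Dbp*, *Per1*, *Tob2* and *S1pr1* below it. *Klf2* and *Klf4* are raised in all 4 IR edit hearts, *Egr2* and *Egr3* mainly in replicates 2 and 4, and Sham replicate 1 has raised *Klf2*, *Per1* and *Tob2* with low *Arntl*.

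Across the 13 hearts the members were compared by their levels (log2 CPM), as a description over libraries whose groups differ. *Klf4* and *Klf6* had a Pearson r of 0.94, *Klf2* and *Klf4* 0.92, and *Egr2* and *Egr3* 0.92. *Klf2* and *Egr1* had 0.24. *Btg2* had 0.86 with *Egr2* and 0.85 with *Klf6*. *Klf10* was at -0.53 with *Klf2* and at 0.12 with *Ier3*.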

How the data were processed

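Gene-level RNA-seq counts of 13 hearts were used. The authors deposited the raw counts, 1 file a library, by gene symbol. Named in the submitters' processing notes are mm10, featureCounts 1.6.2, HISAT2 2.1.0, Trimmomatic 0.39 and FastQC 0.11.8. The counting annotation and strandedness, not given in the sources used here, could move reads between overlapping genes, and no GENCODE M21 gene overlaps a member. Counts were analysed in R 4.3.3 with edgeR 4.0.16: filterByExpr (15690 genes left), TMM, a mean per group over all 13 libraries, the quasi-likelihood test (9 residual and 6.08 prior degrees of freedom) and Benjamini-Hochberg adjustment across the 15690 genes, with a threshold of 0.05. The SE is the absolute log2 fold change over the square root of F. Levels are TMM-scaled CPM, and log2 CPM used a prior count of 2. No 2 libraries of a group agreed within sampling noise (chi-square per degree of freedom at least 4.83). The pipeline was tested on simulated data. Alternatives, run for the members, were DESeq2 1.42.0, other scalings, filters, dispersions, fits and left-out libraries. The members and lists were chosen with earlier results of these data known. Of each other list, the genes with the smallest p in IR edit against Sham (3) or IR virus (2) could be named.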

Additional observations from a re-analysis of the deposited data

Results flagged for a closer look

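*Btg2* in IR edit replicate 4, at 100.5 CPM, lay far from the other 3 hearts of its group, of which the nearest was at 40.0 CPM. The gap was 0.91 of the group's range, above Dixon's 95% critical value for 4 samples. Of the 10 early genes tested in this way in IR edit, the only group of 4, it was the 1 found. Chance alone flags about 1 in 20 genes tested, so 1 among 10 can arise by chance.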

How the results depend on the processing

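The count of members called moved by over 1.5 times under the settings given next, and the cause was not tested. Against Sham, with 7 as reported, 4 were called with robust quasi-likelihood (*Egr2*, *Egr3*, *Klf4*, *Klf6*; 7.16% of all genes), 1 in a fit of the 2 groups alone, 2 without IR edit replicates 2 and 4 (chosen after seeing the data), and 4 to 7 with 1 library left out (4 without Sham replicate 1 or 3 or IR edit replicate 2). Against IR virus, with 3 as reported, 8 were called with no filter, 5 with DESeq2 and 1 to 5 with 1 library left out, the fewest without IR virus replicate 1 and the most without IR edit replicate 1 or 3. Against IR, also 3, the counts were 7, 5 and 1 to 6, the fewest without IR replicate 1 or 2 and the most without IR edit replicate 1. With no filter 1 member was called in IR against Sham (*Egr1*, with 1.87% of all genes) and 1 in IR virus against Sham (*Egr3*, with 2.7%). All genes called in IR edit numbered 1257 against Sham, 317 against IR virus and 223 against IR. With no filter, where 31973 genes were tested, they were 2205, 1018 and 1021 (6.9%, 3.18% and 3.19%). They were 1633, 517 and 443 with DESeq2, 246, 220 and 168 in the 2 groups alone, and 158, 90 and 78 without IR edit replicates 2 and 4. With 1 library left out they ran from 478 (without IR edit replicate 2) to 2351 (IR edit replicate 3) against Sham, from 96 (IR virus replicate 1) to 477 (IR edit replicate 1) against IR virus, and from 59 (IR replicate 2) to 489 (IR edit replicate 3) against IR, so the shares of all genes called move too. For IR and IR virus against Sham, each at 2, they were 598 and 863 with no filter, 57 and 202 with DESeq2, 115 and 203 in the 2 groups alone, and 144 and 257 without those replicates. Over all settings 1165 values of members kept their direction and call, 71 changed sign, 38 gained and 45 lost a call.

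The fit with the replicate block also sets aside IR edit replicate 4, since number 4 occurs in IR edit only, so 2 choices change at once. Under it 6 members were called against Sham (*Klf10* at -0.68, adjusted p = 0.0355, added; *Egr1*, 0.0842, and *Klf2*, 0.0664, lost), 4 against IR virus (*Btg2* added) and 3 against IR (*Btg2* for *Klf6*), and all genes called were 590, 159 and 122. The fit that only leaves out IR edit replicate 4 called the same members in these 3 comparisons (*Klf10* again at -0.68), with 550, 177 and 127 of all genes. Libraries with the same number share only a number: their deviations from group means correlated at -0.13 to 0.22 (18 pairs, 4 above 0.1), those with different numbers at -0.19 to 0.21.

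Log2 fold changes that changed sign were all of members that did not pass. *Klf6* in IR against Sham turned from 0.000977 to -0.00526 (DESeq2 size factors), -0.0135 (mitochondrial genes left out of library sizes), -0.0105 (no filter), -0.00511 (at least 1 CPM in 3 libraries), -0.00538 (DESeq2), -0.00312 (the 2 groups alone). *Ier2* in IR virus against Sham turned from 0.00224 to -0.00735 (DESeq2 size factors), -0.0133 (mitochondrial genes left out of library sizes), -0.0149 (no filter), -0.000297 (at least 1 CPM in 3 libraries), -0.00728 (DESeq2), -0.00692 (the 2 groups alone). *Ier3* in IR edit against Sham turned from 0.000152 to -0.00372 (mitochondrial genes left out of library sizes), -0.00490 (no filter), -0.00209 (at least 1 CPM in 3 libraries), -0.249 (the replicate block), -0.00118 (the 2 groups alone), -0.420 (IR edit replicates 2 and 4 left out). *Egr3* in IR edit against IR virus turned from 0.979 to -0.0615 (IR edit replicates 2 and 4 left out). *Ier3* in IR edit against IR turned from 0.193 to -0.0900 (the replicate block), -0.226 (IR edit replicates 2 and 4 left out). With 1 library left out, sign changes were as follows. In IR against Sham the ranges were -0.511 to 0.0998 for *Klf2*, -0.123 to 0.0604 for *Ier2*, -0.438 to 0.116 for *Ier3*, -0.00203 to 0.116 for *Btg2*, -0.0657 to 0.0423 for *Klf6*, -0.221 to 0.0139 for *Klf10*. In IR virus against Sham the ranges were -0.475 to 0.135 for *Klf2*, -0.104 to 0.00269 for *Klf6*, -0.144 to 0.130 for *Ier2*, -0.162 to 0.392 for *Ier3*. In IR edit against Sham the ranges were -0.266 to 0.312 for *Ier3*. In IR edit against IR virus the ranges were -0.339 to 0.0565 for *Ier3*. In IR edit against IR the ranges were -0.0656 to 0.329 for *Ier3*. In IR virus against IR the ranges were -0.0244 to 0.161 for *Klf2*, -0.124 to 0.0566 for *Klf10*, -0.333 to 0.0955 for *Egr2*, -0.124 to 0.149 for *Ier2*, -0.219 to 0.0132 for *Egr1*.

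*Egr2* and *Egr3* had 6 to 120 and 19 to 181 reads per heart, and the spread over the IR edit hearts (highest over lowest 5.45 and 5.19) also limits them. With 3 or 4 hearts per group, precision is limited for all 10 members.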

Other observations

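In the search for the genes most like each member across the 13 hearts, 2632 predicted or unnamed symbols of the 15690 tested were passed over. The genes given are those with the highest Pearson r of log2 CPM among the rest, as a description because the groups differ. For *Klf2* they were *Tmem100* (r = 0.97), an endothelial membrane protein, *Ddit4* (0.97), a stress-induced inhibitor of mTORC1, and *S1pr1* (0.97). For *Klf4* they were the heat shock cochaperone *Dnajb1* (0.97), *Fosl2* (0.96) and *Sik1* (0.96), and for *Klf6* the cell cycle inhibitor *Cdkn1a* (0.96), *Atf3* (0.95), a stress-induced factor of the CREB family, and *Dcun1d3* (0.94). *Btg2* was most like *Otud1* (0.97), a deubiquitinase, *Cdr2* (0.96) and *Cttnbp2nl* (0.96).

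The EGR genes were most like other sets. For *Egr1* the set was *Micall2* (0.96), *Nppb* (0.95), the B-type natriuretic peptide of strained heart muscle, and *Rassf3* (0.94). For *Egr2* it was *Samd4* (0.98), *Masp1* (0.97), a complement protease, and *Pdgfc* (0.97), a growth factor. For *Egr3* it was the laminin chain *Lama2* (0.95), *Pdlim1* (0.95) and the small heat shock protein *Hspb6* (0.95). *Klf10* (*Tmem59*, 0.91), *Ier2* (*Mrgprf*, 0.90) and *Ier3* (*Aldh1a1*, 0.87) had weaker matches.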
